A study of Mus musculus with 18 samples.

Results

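The mir-148 and mir-152 family comprises 3 of the 1006 miRNA precursors in the deposited read counts of Baf3 cells, listed as mmu-mir-148a, mmu-mir-148b and mmu-mir-152. They share a seed and lie at separate loci. They were chosen by name, with earlier results of these data in view: mir-148a and mir-152 had been seen to be higher in both knockouts from low control levels and mir-148a to differ between guide populations, while mir-148b serves as the comparison. The differences from control and between guides are therefore given as descriptions, without a test. All 3 passed the filter on low counts that left 273 miRNAs, mir-152 only through its levels in the knockout libraries.

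Baf3 is a mouse pro-B cell line kept in interleukin-3. All 18 libraries came from cells carrying fluorescent reporters of mutated miR-15a and miR-16, stably transduced with Cas9 and a guide RNA and selected with puromycin. Control cells (labelled Rag1_KO) carried a guide against Rag1, a gene with no role in miRNA biogenesis; SAFB cells (labelled Safb1 KO, Safb2 KO) a guide against both Safb genes; and ERH cells (labelled Erh KO) a guide against Erh. Each genotype had 2 guides, each guide gave 1 polyclonal population, and a population was sequenced once per labelled batch, in 3 batches; a genotype thus had 6 libraries from 2 populations. Populations that had lost cluster assistance were sorted on derepression of the miR-15a reporter and regrown; how control cells were sorted is not described. The labels do not say whether the 3 libraries of a population came from separate cultures, so p-values measure the spread between these libraries, which may be technical.

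miRNAs guide Argonaute proteins to messenger RNAs chiefly through the seed, bases 2 to 8 of the mature strand, so miRNAs with the same seed are expected to share many targets. The family is known for targeting DNA methyltransferase 1, and miR-148a is known in B cells as a regulator of plasma cell differentiation and of tolerance. Their hairpins are cut from primary transcripts by the Microprocessor, with which SAFB proteins and ERH associate; both act in cluster assistance, the help that a well cut hairpin gives to a poorly cut neighbour on the same transcript.

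The mature 3p strands are shown because the seed defines the family and the remaining bases are all that separates its members in sequencing. They are RefSeq sequences for build GRCm38.p6, 5′ to 3′, with the seed in capitals.
miR-148a-3p: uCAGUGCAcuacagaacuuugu
miR-148b-3p: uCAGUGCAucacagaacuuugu
miR-152-3p: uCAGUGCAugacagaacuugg
All 3 members matched the RefSeq table by name, and among its 1679 mature miRNA names these 3 were the only ones with the seed CAGUGCA. Counted from base 1 at the 5′ end, miR-148a-3p and miR-148b-3p, both 22 bases long, differ at 2 positions, C9U and U10C (miR-148a base first). miR-148a-3p and miR-152-3p, the latter 21 bases long, differ at 3 of the 21 positions compared, C9U, U10G and U20G, and miR-148b-3p and miR-152-3p at 2, C10G and U20G. How reads matching several precursors were assigned is not given in the sources used here, so some reads could have been split between members. The deposited counts sum both arms of a hairpin, and the 3p strand could not be separated from the 5p strand.

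The hairpins are shown because they are the substrate of the Microprocessor; the 3p strand is in capitals.
mir-148a: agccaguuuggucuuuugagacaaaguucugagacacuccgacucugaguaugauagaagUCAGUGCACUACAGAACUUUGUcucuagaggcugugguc
mir-148b: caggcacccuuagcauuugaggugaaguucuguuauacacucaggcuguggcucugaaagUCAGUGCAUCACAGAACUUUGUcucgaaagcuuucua
mir-152: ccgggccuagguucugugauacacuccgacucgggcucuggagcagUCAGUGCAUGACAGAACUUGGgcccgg
The annotated hairpins are 99, 97 and 73 bases long, with 16, 13 and 15 bases between the annotated arms. Their predicted folding energies were -41.0 kcal/mol for mir-148a, -30.9 kcal/mol for mir-148b and -43.5 kcal/mol for mir-152. Per base, 47.0% of the 997 RefSeq mouse hairpins had a lower (more stable) energy than mir-148a, 82.3% a lower energy than mir-148b and 5.2% a lower energy than mir-152. mir-148b is thus the least stable of the 3 predicted hairpins, and mir-148a and mir-152 lie far apart. This is a description of 3 sequences whose annotated lengths differ, and a link between stability and level was not tested.

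In build GRCm38, Mir148a lies on chromosome 6 at 51269812 to 51269910 on the minus strand, between genes, and the nearest protein-coding gene, Nfe2l3, is 162760 bp away. Mir148b lies on chromosome 15 at 103285125 to 103285221 on the plus strand, in an intron of Copz1. Mir152 lies on chromosome 11 at 96850393 to 96850465 on the plus strand, in an intron of Copz2, 523 bp from the annotated start of that gene. Copz1 and Copz2 are paralogs that encode the zeta subunit of the COPI coat of transport vesicles. The nearest Hox genes are Hoxc4 at 248.3 kb from Mir148b and Hoxb1 at 482.1 kb from Mir152. No other annotated miRNA gene was closer than 351722 bp to Mir148a, 65234 bp to Mir148b or 213303 bp to Mir152, so none of the 3 belongs to a tight cluster.

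In control cells the family was almost entirely mir-148b. Levels are given in CPM, miRNA counts on a common library total after scaling by trimmed mean of M-values (TMM), a method that sets libraries level on the bulk of their miRNAs. mir-148b stood at 4200 ± 160.7 CPM in control libraries (SD, n = 6), the 35th of 1006 precursors by mean level. mir-148a stood at 26.0 ± 8.90 CPM (SD, n = 6), the 139th, from 56 to 135 counts in a library. mir-152, with 6, 6, 0, 3, 0 and 3 counts in the 6 control libraries, had 0.886 ± 0.779 CPM (SD, n = 6). For the 2 libraries at 0, a floor of 3 counts corresponds to 1.05 CPM in control guide 1 of batch 3 and 1.14 CPM in control guide 2 of batch 2, for counting error only.

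Libraries held 2699323 to 4470073 miRNA counts. Markers of other cells were read as summed CPM over lists. The blood-cell list (mir-142a, mir-150, mir-155, mir-181a and mir-223) took 147708 to 174246 CPM in control, 153227 to 170760 in SAFB and 124501 to 157392 in ERH libraries. The endothelial marker mir-126a, which blood progenitors also express, was at 4072 to 4586, 3112 to 3731 and 2920 to 3443 CPM, and the 6 epithelial markers at 145.3 to 201.8, 195.0 to 224.0 and 147.5 to 182.5 CPM. The liver miRNA mir-122 was at 4.68 to 8.32 CPM in control, 6.21 to 15.3 in SAFB and 7.67 to 34.2 in ERH, and the endocrine miRNA mir-375 was at most 1.32, 5.06 and 7.79 CPM. Of 3 muscle markers 2 were at 0 in all control libraries and 1 in all libraries of each knockout, and mir-124 was at 0 in all control libraries. The 4 mesenchymal markers summed to 24.3 to 44.4 CPM over all libraries, the 3 muscle markers to at most 5.80 CPM, the neuronal marker mir-124 to at most 1.83 CPM and the red-cell markers to at most 2.31 CPM. mir-122 and mir-375 moved in the same direction as mir-148a and mir-152, at lower levels than mir-148a, and their part in the result was not tested. In bulk samples, fewer cells with a miRNA and less of it per cell cannot be told apart.

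mir-148a was higher in every SAFB library than in any control library, and higher in every ERH library than in any SAFB library. In control guide 1 libraries it stood at 41.7, 28.7 and 24.1 CPM in batches 1, 2 and 3, and in control guide 2 libraries at 25.2, 21.2 and 15.2 CPM. SAFB guide 1 gave 436.5, 253.3 and 267.1 CPM, and SAFB guide 2 gave 225.9, 215.3 and 199.8 CPM. ERH guide 1 gave 726.3, 990.2 and 923.4 CPM, and ERH guide 2 gave 463.7, 604.4 and 498.6 CPM. The 3 genotypes therefore occupied separate ranges, with the narrowest gap between SAFB guide 1 of batch 1 and ERH guide 2 of batch 1.

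Against the control mean of 26.0 ± 8.90 CPM, mir-148a averaged 266.3 ± 86.9 CPM over SAFB libraries and 701.1 ± 219.2 CPM over ERH libraries (SD, n = 6 per genotype). The fitted log2 fold change against control was 3.35 (SE 0.25) in SAFB, a 10.2-fold difference, and 4.75 (SE 0.26) in ERH, a 26.9-fold difference. Within batches 1, 2 and 3 SAFB lay 3.25, 3.21 and 3.55 above control on the log2 scale, and ERH lay 4.14, 4.94 and 5.10 above it. Comparing single populations, the log2 difference of mean levels ranged from 2.78 to 3.90 over the 4 pairs of a SAFB and a control population and from 4.06 to 5.40 over the 4 pairs for ERH. By mean level mir-148a moved from the 139th precursor in control to the 80th in SAFB and the 65th in ERH.

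mir-152 followed the same order of genotypes at a level more than an order of magnitude below mir-148a. Its counts were 64, 52 and 18 in SAFB guide 1 libraries of batches 1, 2 and 3, and 30, 29 and 31 in SAFB guide 2 libraries. In ERH guide 1 libraries they were 82, 104 and 116, and in ERH guide 2 libraries 62, 95 and 119. No SAFB or ERH library overlapped the control libraries, but SAFB and ERH overlapped each other, because SAFB guide 1 of batch 1 at 17.99 CPM lay above ERH guide 2 of batch 1 at 14.9 CPM.

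mir-152 averaged 9.98 ± 4.62 CPM over SAFB libraries and 27.5 ± 8.34 CPM over ERH libraries (SD, n = 6 per genotype), against the control mean of 0.886 ± 0.779 CPM. The log2 fold change against control was 3.37 (SE 0.45) in SAFB and 4.82 (SE 0.43) in ERH. These rest on 18 counts over the 6 control libraries against 224 in SAFB and 578 in ERH. The scaled ratio of summed counts was 10.6 in SAFB, with a 95% exact binomial interval of 6.54 to 18.2, and 28.3 in ERH, with an interval of 17.8 to 48.1; both intervals cover counting error only.

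**Figure D1:**
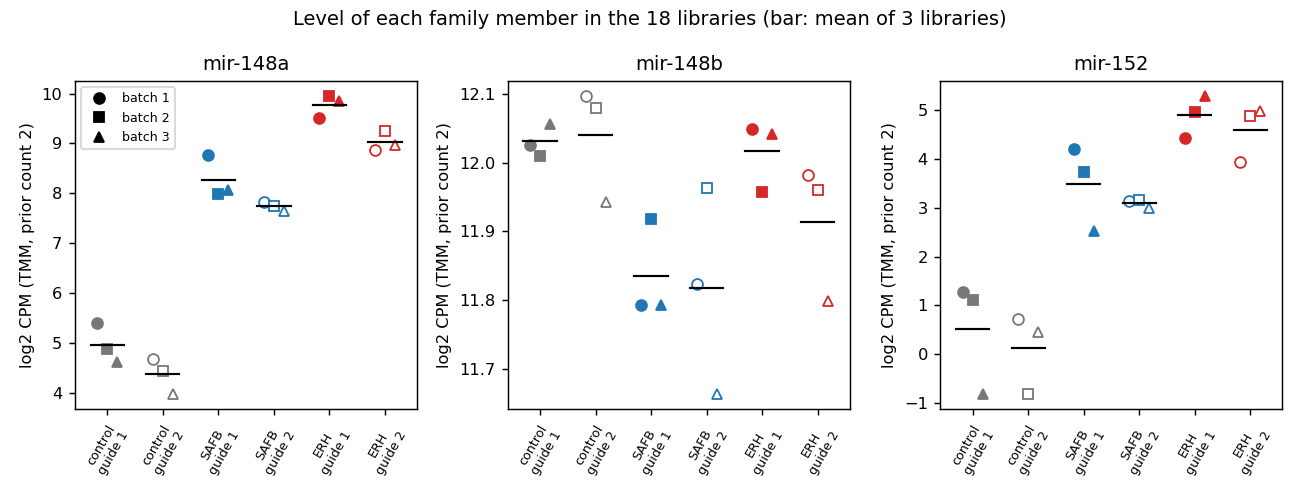
Level of mir-148a, mir-148b and mir-152 in log2 CPM (vertical axes, which differ between panels) for the 6 guide populations; each point is a library, its shape gives the batch, open points are guide 2 and bars are means of 3 libraries. mir-148a and mir-152 are lowest in control and highest in ERH, while the mir-148b libraries all lie between 11.66 and 12.10.

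mir-148b ranged from 3936 to 4380 CPM in control, from 3244 to 3993 CPM in SAFB and from 3563 to 4237 CPM in ERH libraries. Its means were 4200 ± 160.7, 3638 ± 265.0 and 4004 ± 243.7 CPM (SD, n = 6 each), and the libraries of every pair of genotypes overlapped. The log2 fold change against control was -0.21 (SE 0.059) in SAFB and -0.069 (SE 0.059) in ERH. Spike-in scaling, which sets libraries level on synthetic RNAs mixed into a fixed amount of total RNA, gave -0.48 and 0.21, and the direction in ERH therefore depends on the scale. The coefficient of variation of CPM within a genotype was at most 7.28% for mir-148b, against 31.3% to 34.2% for mir-148a and 30.4% to 87.9% for mir-152. These pool the guide populations and hold for TMM scaling. Within SAFB guide 2 it was 10.3% for mir-148b, 6.15% for mir-148a and 6.41% for mir-152. In each other population mir-148b had the lowest value.

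Across all miRNAs, the edgeR quasi-likelihood test called 56% of the 273 in SAFB against control and 53.8% in ERH against control at an adjusted p under 0.05. Called as higher were 30.8% of all miRNAs for SAFB and 26.4% for ERH; called as lower were 25.3% and 27.5%. These splits depended on the scale: 84 higher and 69 lower in SAFB became 44 and 58 under spike-in scaling, and 72 and 75 in ERH became 108 and 33 under total counts and 72 and 19 under spike-ins. Libraries did not overlap for 36.6% of miRNAs in SAFB against control and for 37.4% in ERH against control, of which 19.4% of miRNAs in either comparison were higher. These shares are background only: the members were chosen on these comparisons, and no call is given for them. By fold change mir-152 was the 12th and mir-148a the 13th from the top of 273 in SAFB, and they were the 10th and the 11th in ERH.

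The comparison of ERH with SAFB was not used to choose the members, although the value for mir-148a was already known from an earlier account. In ERH libraries mir-148a exceeded its SAFB level by 2.63-fold, a log2 difference of 1.40 (SE 0.22, edgeR adjusted p = 1.8e-05 over 273 miRNAs), and all 6 ERH libraries lay above all 6 SAFB libraries. mir-152 was higher by 2.74-fold, a log2 difference of 1.45 (SE 0.31, edgeR adjusted p = 0.00059), with overlapping libraries. mir-148b differed by 0.14 on the log2 scale (SE 0.059), which did not pass the threshold (edgeR adjusted p = 0.067). Of the 273 miRNAs, 39.6% were called in this comparison, 23.8% as higher in ERH, and libraries did not overlap for 20.5%, with 14.3% of miRNAs higher in ERH. These shares run over all miRNAs, raised against control or not. mir-125a and mir-182, also far above control in SAFB, were higher in ERH by 1.24 and 1.32. mir-491, raised as well, was at 0.52 and was not called.

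With batch as a block mir-148b passed, at the same log2 difference of 0.14 (edgeR adjusted p = 0.043). Over the alternatives run, its difference ranged from 0.074 to 0.69, always higher in ERH, so only the size and the call depended on the scale. The scaling also shifted miRNAs in general: the median log2 difference of the 273 miRNAs between ERH and SAFB was 0.042 with TMM factors. With total counts it was 0.31 and with spike-ins 0.57, and the split of calls went from 65 higher and 43 lower to 115 and 8, and to 111 and 1. mir-148a and mir-152 stayed above that shift, at 1.85 and 1.97 under spike-in scaling.

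Within batches 1, 2 and 3 the difference between ERH and SAFB was 0.88, 1.73 and 1.55 on the log2 scale for mir-148a. For mir-152 it was 0.52, 1.48 and 2.37. The difference was smallest in batch 1 for both miRNAs. In that batch both were highest among SAFB libraries, in guide 1, and lowest among the ERH libraries of each guide. Without that SAFB guide 1 library the differences were 1.59 for mir-148a and 1.70 for mir-152. mir-148b showed 0.21, 0.018 and 0.19.

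**Figure D2:**
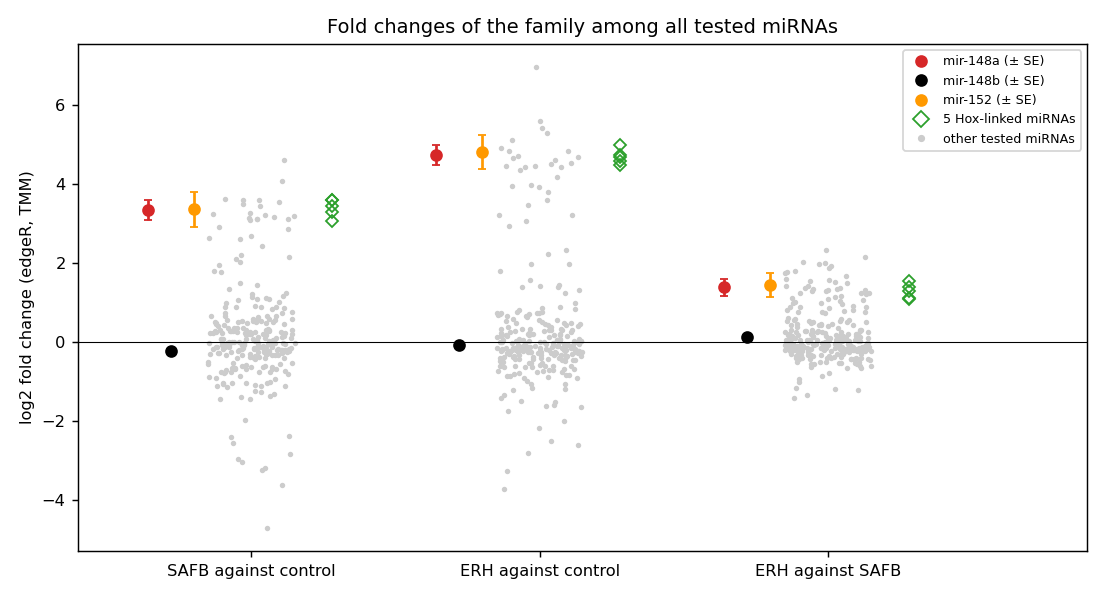
Log2 fold change (vertical axis) in the 3 comparisons for mir-148a, mir-148b and mir-152 (filled points, bars are standard errors), the 5 Hox-linked miRNAs (open diamonds) and the other tested miRNAs (grey). In ERH against SAFB, mir-148a at 1.40 and mir-152 at 1.45 lie beside the Hox-linked miRNAs, and mir-148b at 0.14 lies near the bulk. Some other miRNAs, such as mir-182 at 1.32, lie as high.

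The make-up of the family can be read within a library, without scaling between libraries. mir-148b made up 99.4% ± 0.223 of the summed counts of the 3 members in control libraries (SD, n = 6), 93.0% ± 2.19 in SAFB libraries (SD, n = 6) and 84.8% ± 3.67 in ERH libraries (SD, n = 6). The mir-148a share was 0.615% ± 0.210, 6.79% ± 2.10 and 14.6% ± 3.595 in the same order (SD, n = 6). mir-152 stayed below 1% of the family in every library, at most 0.755%. Even in ERH, then, most counts of the family belonged to the mir-148b precursor.

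Relative to mir-148b, mir-148a stood at 0.387% to 1.00% in control, at 5.39% to 12.3% in SAFB and at 11.5% to 24.9% in ERH libraries. Counts of mir-148b ranged from 11441 to 16881 over the 18 libraries while those of mir-148a ranged from 56 to 3378. The ratio of mir-152 to mir-148a moved little by comparison: control libraries had 3.25% ± 2.56, SAFB libraries 3.72% ± 1.00 and ERH libraries 4.06% ± 1.28 (SD, n = 6), with the library ranges overlapping between all genotypes.

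Summed over its members, the family reached 4226 ± 162.3 CPM in control libraries, 3915 ± 273.8 CPM in SAFB libraries and 4732 ± 399.9 CPM in ERH libraries (SD, n = 6). Control libraries ranged from 3952 to 4406 CPM, SAFB libraries from 3451 to 4217 CPM and ERH libraries from 4092 to 5179 CPM, so all 3 ranges overlapped. As a share of all miRNA counts, with no TMM scaling, the family took 0.390% ± 0.00837 in control libraries, 0.372% ± 0.0289 in SAFB libraries and 0.539% ± 0.0409 in ERH libraries (SD, n = 6). The order of genotypes was the same on both scales, and the ERH libraries lay apart from the others only on the unscaled share, at 0.483% to 0.576% against at most 0.396%.

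**Figure D3:**
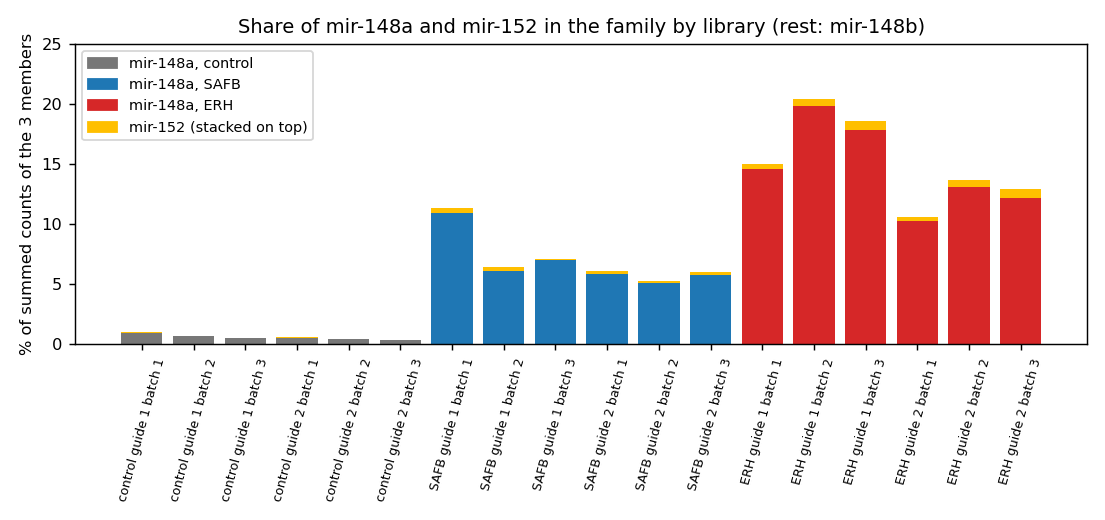
Share of mir-148a (coloured by genotype) and mir-152 (stacked on top) in the summed counts of the 3 members, in percent, for each of the 18 libraries; the rest is mir-148b. The mir-148a share is below 1% in the 6 control libraries, 5.11% to 10.9% in SAFB and 10.2% to 19.8% in ERH.

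The mean level of mir-148a also differed between the 2 populations of a genotype, and the population labelled guide 1 was higher in each. Guide numbers name unrelated guides against different genes. Guide 1 exceeded guide 2 by a ratio of 1.55 for control, 1.49 for SAFB and 1.69 for ERH, as log2 differences of guide 2 against guide 1 of -0.63 (SE 0.25), -0.58 (SE 0.21) and -0.75 (SE 0.21). Libraries of the guides overlapped in control but not in SAFB or ERH. In control and SAFB the size leaned on a single library: without control guide 1 of batch 1 the control value was -0.38, and without SAFB guide 1 of batch 1 the SAFB value was -0.28. No overlap between guides was found for 8.79%, 7.33% and 8.42% of miRNAs in control, SAFB and ERH.

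No test of the members between guides is given, since the choice used that difference for mir-148a. Over all miRNAs the edgeR test called 0% of miRNAs between guides in control, 0% in SAFB and 0.366% in ERH, with 2.56%, 3.66% and 6.59% at an unadjusted p under 0.05; DESeq2 called 0, 0 and 1. Under spike-in scaling the differences for mir-148a were 0.026, -0.65 and -0.15. The guide difference in control and ERH was thus seen relative to the other miRNAs and not to the spike-ins, in control with overlapping libraries. That scaling raised the calls between guides to 96 in control and 110 in ERH. Relative to mir-148b within a library, mir-148a stood at 0.565% to 1.00% with control guide 1 and 0.387% to 0.575% with control guide 2. It stood at 6.54% to 12.3% and 5.39% to 6.23% with the SAFB guides and at 17.1% to 24.9% and 11.5% to 15.2% with the ERH guides.

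In ascending order of mean mir-148a level the populations were control guide 2 (20.5 CPM), control guide 1 (31.5 CPM), SAFB guide 2 (213.7 CPM), SAFB guide 1 (319.0 CPM), ERH guide 2 (522.2 CPM) and ERH guide 1 (880.0 CPM). Only the control populations overlapped with their neighbour in that order. With TMM scaling mir-152 had the same order of populations. Its means ran from 0.627 and 1.14 CPM in control over 7.99 and 12.0 CPM in SAFB to 24.9 and 30.0 CPM in ERH. In each genotype the guide populations of mir-152 overlapped. Its guide differences were -0.84 (SE 0.94), -0.58 (SE 0.45) and -0.27 (SE 0.41) in control, SAFB and ERH. Leaving out single libraries moved them over -1.34 to -0.36, -0.94 to -0.18 and -0.47 to 0.00057, the last without ERH guide 2 of batch 1; SAFB reached -0.18 without SAFB guide 1 of batch 1. Those of mir-148b were 0.011, -0.014 and -0.10 (SE 0.089 each). Under spike-in scaling the guide differences in control, SAFB and ERH were -0.22, -0.61 and 0.29 for mir-152. For mir-148b they were 0.66, -0.052 and 0.54. The direction in ERH thus depended on the scale for both, as did the size in control for mir-148b.

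The miRNAs nearest in pattern were named by Pearson correlation of log2 CPM over the 18 libraries, which fall into 3 genotypes and share their scaling. Among 203 candidates mir-148a was most like mir-196b (r = 0.997), mir-196a (0.992), mir-182 (0.989) and mir-183 (0.984). mir-152 was most like mir-196a (0.965), mir-182 (0.964), mir-148a (0.962) and mir-99b (0.96). mir-148b was most like mir-19b (0.786), mir-146a (0.767), mir-27a (0.765) and mir-1983 (0.742), and its r with mir-148a was -0.359. mir-196b had mean levels of 12.4, 122.5 and 299.5 CPM in control, SAFB and ERH, and mir-182 of 5.97, 52.6 and 131.9 CPM. In the order of likeness to mir-148a, mir-152 stood at place 15.

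Fold changes of tested miRNA genes near the members are given as a description. The tested miRNA genes within 2 Mb were Mir196b at 960.2 kb from Mir148a, Mir615 at 270.1 kb and Mir196a-2 at 311.7 kb from Mir148b, and Mir10a at 533.1 kb, Mir196a-1 at 585.1 kb and Mir8103 at 213.3 kb from Mir152. mir-196b, at log2 fold changes of 3.30 in SAFB and 4.59 in ERH against control, lay close to mir-148a. mir-10a, at 3.46 and 5.00, lay close to mir-152, while mir-8103, which is nearer to Mir152, was at 0.64 and 0.32. mir-615, at 3.62 and 4.74, lay far from mir-148b at -0.21 and -0.069, although Mir615 is the nearest of these tested genes to Mir148b. The entry mir-196a sums its gene copies on chromosomes 11 and 15, which cannot be told apart here. Such fold changes were not particular to neighbours. Outside these windows, mir-125a was at 3.61 and 4.85 and mir-342 at 3.25 and 4.47. A link between position and fold change was not tested.

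**Figure D4:**
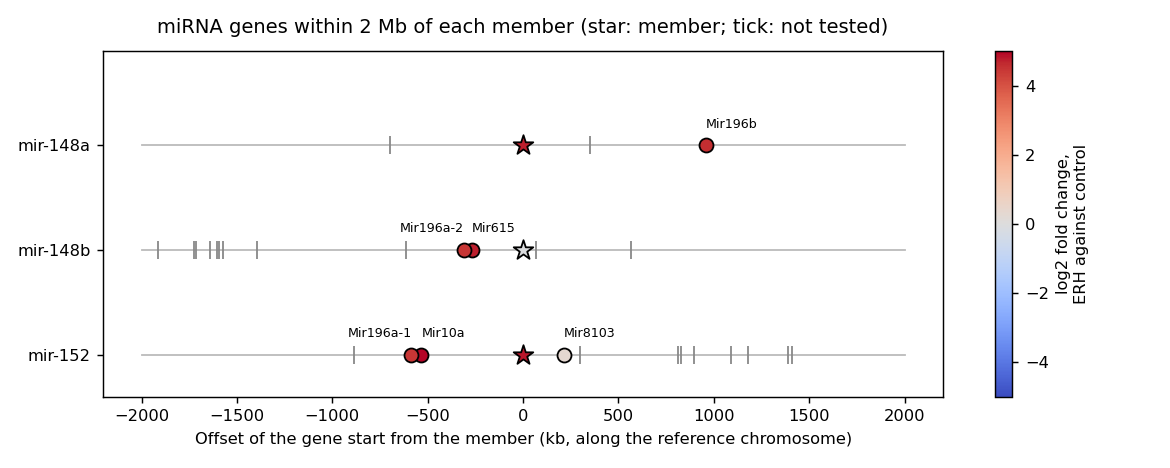
Offset in kb (horizontal axis) of annotated miRNA genes within 2 Mb of each member (star at 0); circles are genes whose miRNA was tested, coloured by log2 fold change in ERH against control, and ticks are genes not tested. mir-148b, at -0.069, is pale beside Mir615 at 4.74 on the same chromosome, whereas mir-148a and mir-152 have the colour of Mir196b and Mir10a. miRNAs outside these windows, not drawn, had like values, such as mir-125a at 4.85.

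The list of Hox-linked miRNAs encoded inside Hox clusters held mir-10a, mir-10b, mir-196a, mir-196b and mir-615, and all 5 were tested. mir-615, like mir-152, passed the filter only through the knockout libraries, so its place in the counts against control was fixed by the filter, and these counts are a description. All 5 were higher in SAFB (median log2 fold change 3.46) and all 5 were higher in ERH (median 4.69), beside 30.8% and 26.4% of all miRNAs and medians of 0.0083 and -0.061. In ERH against SAFB all 5 were higher, by 1.09 to 1.55 (edgeR adjusted p from 9e-06 to 0.0042), beside 23.8% of all miRNAs called higher. The same 5 of 5 were higher in each comparison under the 3 other scalings; in ERH against SAFB these called 70 (RLE), 115 (total counts) and 111 (spike-ins) of all 273 miRNAs higher, against 65 under TMM. Reads of mir-10a and mir-10b, and of mir-196a and mir-196b, could be shared between the near-identical strands. The comparisons with control share the control libraries.

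A list with an overlapping seed, shifted by a base, held mir-130a, mir-130b, mir-301a and mir-301b. RefSeq gives the seed AGUGCAA, which has 6 bases in common with CAGUGCA, for the 3p strands of miR-130a, miR-130b and miR-301a, and also for miR-130c, miR-6341, miR-6389 and miR-721, which the list did not hold. Of the listed miRNAs 3 were tested; none was higher and 2 were lower in each knockout against control under TMM, beside 30.8% higher and 25.3% lower over all miRNAs in SAFB and 26.4% and 27.5% in ERH. mir-130b was at -2.37 in SAFB and -2.49 in ERH, mir-301b at -0.62 and -0.46, and mir-301a, at -0.20 and -0.14, was not called. In ERH against control only 1 was called lower under total counts and under spike-ins, and the highest of the 3 values was then 0.16 and 0.18. Over all 273 miRNAs these scalings called 33 and 19 lower, against 75 under TMM. None of the 3 was called between ERH and SAFB (edgeR adjusted p from 0.30 to 0.68), beside 39.6% of all miRNAs. Total counts and spike-in scaling each called 2 as higher, beside 115 and 111 of all 273.

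Of 15 regulators of B cells and other lymphoid cells, all tested, 6 were higher and 6 lower in SAFB against control, and 5 were higher and 7 lower in ERH. The list held mir-17, mir-19b, mir-21a, mir-29b, mir-34a, mir-125b, mir-146a, mir-150, mir-155, mir-181a, mir-181b, mir-185, mir-210, mir-221 and mir-223. Over all miRNAs 30.8% and 25.3% were called higher and lower for SAFB, and 26.4% and 27.5% for ERH. mir-210, at 0.759 CPM in control and 2.93 and 4.36 higher on the log2 scale in SAFB and ERH, passed the filter only through the knockout libraries, so its place among the higher miRNAs was fixed by the filter and these counts are a description. The list medians were -0.12 and -0.24. mir-125b, which regulates haematopoietic progenitors, was at 3.14 and 4.44, and mir-150, a regulator of B-cell development, at -1.96 and -1.06. mir-155, which acts in activated lymphocytes, was at -0.12 in SAFB, where it was not called, and at -0.38 in ERH. Other members moved in either direction: mir-34a was at 1.81 and 3.97 and mir-181b at -2.56 and -0.63. mir-223 was at 0.86 in SAFB and -0.061 in ERH. Between ERH and SAFB 7 were higher and 4 lower, with a median of 0.26, beside 23.8% higher and 15.8% lower over all miRNAs. Total counts gave 10 and 1 (median 0.52), beside 115 and 8 of all 273 miRNAs (median 0.31). Spike-ins gave 10 and 0 (median 0.80), beside 111 and 1 (median 0.57). In ERH against control the split went to 6 higher and 2 lower under total counts, beside 108 and 33 of all 273 miRNAs. Under spike-in scaling it went to 4 and 0, beside 72 and 19. In SAFB against control spike-in scaling gave 4 higher and 6 lower (median -0.39), beside 44 and 58 (median -0.23).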

How the data were processed

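Small RNA libraries were made from total RNA with 4 spike-in RNAs and a commercial miRNA kit, per the labels. The deposited values are raw read counts per precursor, which the authors did not normalize, for 1006 precursors and 4 spike-ins in 18 libraries. Per the submitters' processing notes SAMtools was used; aligner, counting program, genome build and use of molecular identifiers are not given in the sources used here. Counts were tested with edgeR 4.0.16 (limma 3.58.1, R 4.3.3): filterByExpr by population with a minimum count of 10, TMM, a quasi-likelihood fit with a mean per genotype over 18 libraries, and Benjamini-Hochberg adjustment over 273 miRNAs with a threshold of 0.05. Guides were compared in a fit with a mean per population. Standard errors are the fold change divided by the square root of F. Log2 CPM used a prior count of 2. Spike-ins (0.165% to 0.366% of counts) stayed out of library sizes and tests. Simulated counts were used to check the fit. Library pairs of a population differed by a chi-square per degree of freedom of 27.5 to 157, so none was a duplicate. Counts are limited by counting error, and reads are not independent molecules.

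Batch numbers pair libraries across populations, per the labels. The mean correlation of library deviations between populations was 0.0283 within a batch (45 pairs) and -0.0142 between batches (90 pairs). Deviations were taken from the mean of each population, so the value between batches largely follows from that within a batch. Alternatives were RLE, total-count and spike-in scaling, no filter, DESeq2 1.42.0, a batch block, and leaving out libraries or populations with the same 273 miRNAs and, where kept, the same TMM reference library. The TMM reference was varied after seeing the data. Members and lists were chosen with earlier results of these data known. Named miRNAs followed a rule: the members, the 4 most alike miRNAs averaging 20 counts or more, miRNA genes within 2 Mb and the lists. The listed marker mir-142 was read at the entry mir-142a. Positions are from GENCODE M21 and RefSeq GRCm38.p6, which may not be the authors' build, and folds from RNAfold 2.7.2. A distance for Mir148a is not reported here.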

Additional observations from a re-analysis of the deposited data

Results flagged for a closer look

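Groups of 6 libraries were examined for a library far from the others, by the gap to its nearest neighbour as a share of the range against Dixon's 95% critical value. Of 12 groups 3 had such a library; chance gives about 1 in 20. Among SAFB libraries, guide 1 of batch 1 had the highest mir-148a level, at 8.77 log2 CPM against 7.65 to 8.06 in the others, a gap of 0.628 of the range. The same library had the lowest share of mir-148b in the family, 88.6% against 92.9% to 94.7%, a gap of 0.699. Both values rest on the same mir-148a count of 1553. Among ERH libraries, guide 2 of batch 3 had the lowest mir-148b level, at 11.80 log2 CPM against 11.96 to 12.05, a gap of 0.635.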

How the results depend on the processing

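Against control, mir-148a and mir-152 kept their direction under each of the 32 alternatives run for each comparison and moved by less than the spread between libraries; between ERH and SAFB both also kept their call. Values for mir-148b were small beside the differences between scalings. In SAFB against control it moved to -0.48 under spike-in scaling and to -0.070 with the TMM reference library giving the highest value. In ERH against control it moved to 0.24 under total counts, 0.21 under spike-in scaling, 0.022 without population ERH guide 2 and 0.052 with the highest TMM reference. Between ERH and SAFB its call was gained under RLE scaling (0.17), total counts (0.40), spike-in scaling (0.69), DESeq2 (0.17), the batch as replicate block (0.14) and the highest TMM reference (0.24), and with 8 of the 18 reference libraries; the cause was not tested. Leaving out single libraries gave 0.11 to 0.17 for this difference, with the call gained without SAFB guide 2 of batch 2 (0.17) and without ERH guide 2 of batch 3 (0.15). The block changed no other call of a member. The number of miRNAs called in ERH against control fell to 91 under spike-in scaling, from 147. Calls between the ERH guides went from 1 to 4 without the filter and to 2 without ERH guide 2 of batch 1. Without population ERH guide 1 the mir-148a difference between ERH and SAFB was 0.97. Depth limits mir-152, whose control level rests on 18 counts.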
